A study of Mus musculus with 3 samples.

Results

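MEF2 and Sox6 transcription factors were followed through 3 striated muscles of the mouse: 4 genes, Mef2a, Mef2c, Mef2d and Sox6, of 48397 gene names in the deposited gene table. They were taken by name, together with their 166 exonic parts of 27271 in the deposited part table. Mef2a had 37 parts, Mef2c 76 and Sox6 53. Mef2d was not among the 686 genes that were divided into parts. The samples were cardiac muscle from the apex alone, whole EDL (extensor digitorum longus), a fast muscle that extends the toes, and whole soleus, a slow muscle of the calf. All came from male wild-type C57BL/6 mice aged 8 weeks, and the labels name no treatment. Each muscle gave 1 library, and the sources used here do not say how many mice it held. RNA was copied to cDNA, molecules of 5 to 10 kb were selected, and each was read from end to end on a PacBio instrument (Iso-Seq). Whole muscle holds several cell types, and fewer cells of a type and less RNA per cell cannot be told apart in it.

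MEF2 proteins bind DNA through a MADS box and an adjoining MEF2 domain, and they work with the MyoD family in skeletal muscle and with GATA4 and other factors in the heart. Class IIa histone deacetylases hold them inactive, and calcium signalling releases them. Their transcripts are known for a pair of coding exons that replace each other (the alpha exons), a very short optional exon (beta) and, in Mef2c, a stretch that an alternative splice site removes (gamma). SOX6 is a SoxD protein with an HMG box. In mouse skeletal muscle it is known to repress genes of slow fibres, and in cartilage it works with SOX5 and SOX9.

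The sequences that set the transcript forms apart are shown here, taken from the GENCODE M21 transcripts of the build GRCm38. They are the exons whose use is compared further on, written 5′ to 3′ on the strand of the gene. The Mef2c 144-nt exon lies at chr13:83625265-83625408 and the Mef2c 138-nt exon at chr13:83625470-83625607, both on the plus strand. The Mef2a 132-nt exon lies at chr7:67268269-67268400 on the minus strand. All 3 are coding exons. In the Mef2c 144-nt and Mef2a 132-nt exons, capitals mark the bases identical to each other in a global alignment, and in the Mef2c 138-nt exon those identical to the Mef2c 144-nt exon.
Mef2c 144-nt exon: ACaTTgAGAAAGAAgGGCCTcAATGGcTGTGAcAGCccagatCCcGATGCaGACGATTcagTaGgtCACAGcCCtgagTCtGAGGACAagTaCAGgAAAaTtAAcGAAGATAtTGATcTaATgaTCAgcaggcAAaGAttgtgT
Mef2a 132-nt exon: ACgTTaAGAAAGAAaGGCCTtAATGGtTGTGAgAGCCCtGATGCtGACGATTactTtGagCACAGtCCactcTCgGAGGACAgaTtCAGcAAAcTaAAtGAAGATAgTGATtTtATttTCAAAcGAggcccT
Mef2c 138-nt exon: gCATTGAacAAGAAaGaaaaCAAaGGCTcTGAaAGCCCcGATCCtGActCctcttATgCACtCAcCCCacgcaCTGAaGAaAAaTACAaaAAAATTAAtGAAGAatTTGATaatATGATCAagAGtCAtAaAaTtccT
The Mef2c 144-nt exon matched the Mef2a 132-nt exon at 94 of 144 positions (65.3%). The Mef2c 144-nt and 138-nt exons matched at 90 of 144 positions (62.5%).

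The short optional exons are shown because Mef2a and Mef2c reads differed in them. The Mef2a 24-nt exon lies at chr7:67244521-67244544 on the minus strand, and the Mef2c 24-nt exon at chr13:83654598-83654621 on the plus strand, and both are coding. Capitals mark the bases that they share, 17 of 24 (70.8%).
Mef2a 24-nt exon: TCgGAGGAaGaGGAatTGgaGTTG
Mef2c 24-nt exon: TCtGAGGAtGtGGAtcTGctGTTG
The next sequence is the start of a later coding exon of Mef2c, chr13:83662307-83662426 on the plus strand. Capitals mark a 96-nt stretch, chr13:83662307-83662402, that some reads lacked.
Mef2c 120-nt start of exon: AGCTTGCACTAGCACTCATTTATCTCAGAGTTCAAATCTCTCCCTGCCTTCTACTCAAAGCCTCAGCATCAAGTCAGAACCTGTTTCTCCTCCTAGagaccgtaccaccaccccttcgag
The Sox6 exon at chr7:115597496-115597619 on the minus strand is shown for its first 3 bases, in capitals. They formed a deposited part of their own (part 21) at an exon border, and they were present or absent in the reads.
Sox6 124-nt exon: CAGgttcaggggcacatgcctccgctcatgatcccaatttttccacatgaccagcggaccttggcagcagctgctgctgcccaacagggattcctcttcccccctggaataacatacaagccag

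Depth and the size selection limited what could be measured. Molecules outside 5 to 10 kb were selected against, so a marker or listed gene with few or no reads may still be expressed. The libraries held 18302 cardiac, 19826 EDL and 17459 soleus consensus reads in genes, where a consensus read merges full-length reads judged to be of the same transcript. A single read therefore stood for 54.6, 50.4 and 57.3 RPM (reads per 1000000 reads in genes). The markers of each library went with its label: all 5 cardiac markers were called higher in the heart, all 5 skeletal markers higher in each leg muscle, and the slow myosin Myh7 stood at 433 soleus reads against 18 for EDL. Myosin heavy chain genes are near-identical in places, so their reads could be split between copies. The 3 cartilage markers, relevant because Sox6 is a cartilage gene, had no read in any library. Endothelial markers, relevant because MEF2C is also found in blood vessels, had reads for 5 of 8 genes, summing to 75 in cardiac, 60 in EDL and 56 in soleus. The defining endothelial genes Pecam1 and Cdh5 were at 0.

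Mef2c was low in the heart and several times higher in both leg muscles. The gene (chr13:83504034-83667080) was found in 8 cardiac, 38 EDL and 65 soleus consensus reads. In RPM this was 437 (exact Poisson 95% interval 189 to 861), 1917 (1356 to 2631) and 3723 (2873 to 4745). The 3 intervals did not overlap, with cardiac lowest and soleus highest. A gene was called when its pair of libraries held at least 20 reads and the exact conditional binomial 95% interval of the RPM ratio lay wholly beyond 2-fold. By this rule Mef2c was called higher in EDL than in cardiac muscle, 4.38-fold (2.01 to 10.9), where 5.2% of the 500 genes measured were called higher in EDL. The lower end only just cleared the bar, and with the 10 most abundant genes left out of the totals the ratio was 4.21 (1.94 to 10.5) and was not called. Mef2c was also called higher in soleus than in cardiac muscle, 8.52-fold (4.08 to 20.6), against 4.86% of 473 genes called higher in soleus. Between the leg muscles it was 1.94-fold higher in soleus (1.28 to 2.98), an interval clear of 1, like 7.29% of 494 genes higher in soleus, but not of 2, so it was not called. Counted in full-length reads, at the best covered part of the gene, that ratio was 3.13 (2.503 to 3.95) and was called. The ratios to cardiac muscle were then also larger, and both were called. They were 7.98 for EDL (4.37 to 15.98) and 25.01 for soleus (14.2 to 48.8). These full-length intervals take merged reads as independent, which they are not. At that part a Mef2c consensus read merged on average 1.5 cardiac, 2.58 EDL and 5.94 soleus full-length reads. Full-length ratios of genes were scaled to each library's sum over the best covered parts of genes, not to RPM. Fibroblast markers had reads for 2 of 4 genes and ran in the same order as Mef2c, with sums of 1 cardiac, 10 EDL and 14 soleus reads. Nearly all of these reads were of Fn1, with 1, 9 and 14, while the defining fibroblast genes Pdgfra and Col3a1 were at 0. Of the endothelial reads, Kdr, a receptor for vascular growth factor, gave 36 cardiac, 17 EDL and 22 soleus reads. In the same order of libraries, Ptprb gave 22, 24 and 17, Vwf 11, 10 and 7, and Flt1 6, 8 and 10. Of these genes Flt1 ran in the order of Mef2c and the others did not. The part of either cell type in the Mef2c levels was not tested.

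Sox6 had its highest level in the fast muscle. The gene (chr7:115470872-116038796, minus strand) was found in 11 cardiac, 53 EDL and 21 soleus consensus reads, or 601 (300.0 to 1075), 2673 (2002 to 3497) and 1203 (745 to 1839) RPM. The EDL interval lay above the other two, which overlapped. Sox6 was called 4.45-fold higher in EDL than in cardiac muscle (2.30 to 9.44). Against soleus it was 2.22-fold higher in EDL (1.32 to 3.88) and was not called, and 0.405% of the 494 genes measured were called higher in EDL in that pair. With the bar at 1-fold, 4.86% of those genes were higher in EDL and Sox6 was among them. In full-length reads, at its best covered part, the same ratio was 5.60 (4.25 to 7.48) and was called. Soleus was 2.001-fold above cardiac muscle (0.922 to 4.60), which was not called. In full-length reads the ratio to cardiac muscle was 19.9 for EDL (11.7 to 36.9), which was called. For soleus it was 3.55 (1.97 to 6.87), which was not called. The full-length intervals of Sox6 also take merged reads as independent. At its best covered part a Sox6 consensus read merged on average 1.17 cardiac, 5.28 EDL and 2.86 soleus full-length reads. That part was a long unannotated stretch in each library, u-001 in EDL and u-002 in soleus, and not the same part throughout. It was covered by 14 cardiac, 285 EDL and 63 soleus full-length reads. The annotated part 3, near the 3′ end, was covered by 13, 284 and 62.

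Mef2a was near even in consensus reads. The gene (chr7:67231163-67372858, minus strand) had 30 cardiac, 52 EDL and 41 soleus reads, or 1639 (1106 to 2340), 2623 (1959 to 3439) and 2348 (1685 to 3186) RPM, and all 3 intervals overlapped. No pair was called. The ratio was 1.60 for EDL over cardiac (1.002 to 2.60, just clear of 1, like 13.2% of genes higher in EDL), 1.43 for soleus over cardiac (0.873 to 2.38) and 1.12 for EDL over soleus (0.727 to 1.72). In full-length reads these ratios were 1.80 (1.42 to 2.30), 1.12 (0.873 to 1.45) and 1.60 (1.30 to 1.99), and none was called. The first and last were clear of 1, with intervals that take merged reads as independent. Mef2d (chr3:88142372-88172086) had 1 cardiac read and 2 reads in either leg muscle, or 54.6 (1.38 to 304), 101 (12.2 to 364) and 115 (13.9 to 414) RPM, too few to compare. The longest annotated Mef2d transcript has 5401 nt, near the lower limit of the size selection, while those of Mef2a, Mef2c and Sox6 have 5538, 6277 and 8668 nt, and the part of size selection in these levels was not tested.

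**Figure D1:**
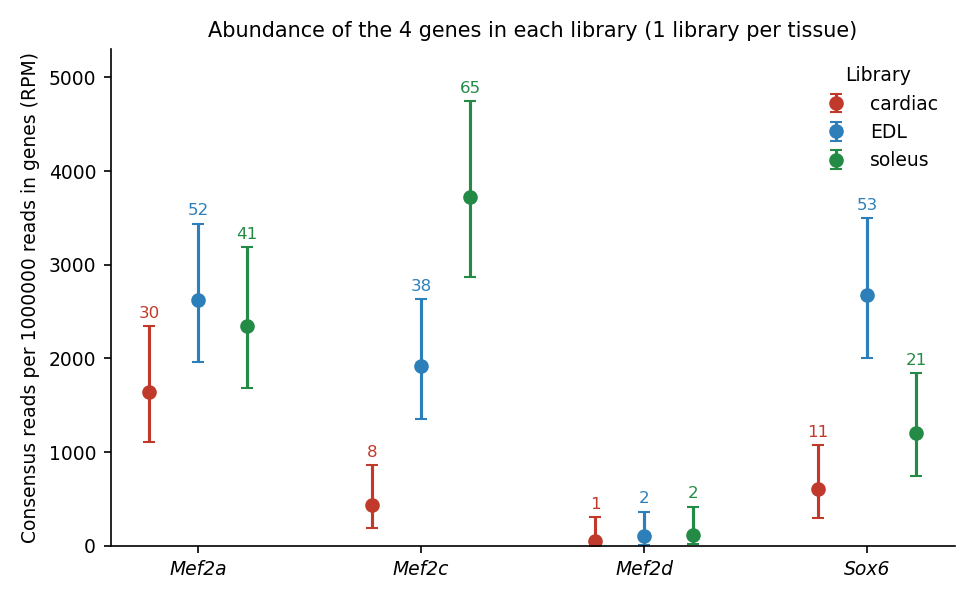
Level of each gene in consensus reads, as RPM (vertical axis), for the 3 libraries, with exact Poisson 95% intervals as bars and the number of reads above each. Mef2c is lowest in cardiac muscle (8 reads) and highest in soleus (65), Sox6 is highest in EDL (53), and the Mef2a intervals overlap.

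**Figure D2:**
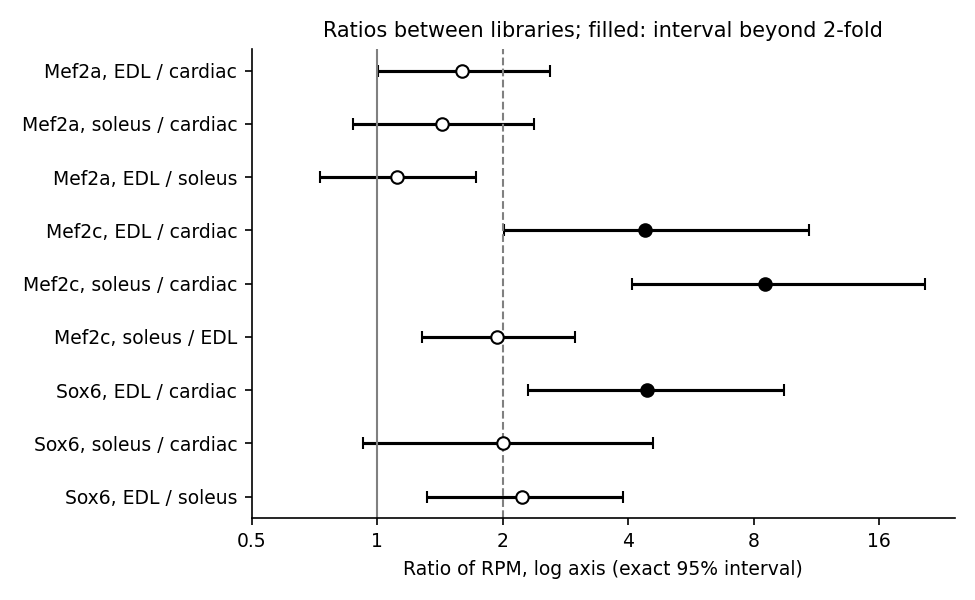
Ratio of RPM between libraries on a log axis, with exact conditional binomial 95% intervals, for the members with at least 20 reads in the pair. Filled points have an interval wholly beyond 2-fold: Mef2c in both leg muscles against cardiac muscle, and Sox6 in EDL against cardiac muscle.

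Genes with the most similar pattern were sought among 721 other genes with at least 20 reads, by the Euclidean distance between the shares of RPM in the 3 libraries. Nearest to Mef2a were Ewsr1, Gfpt1 and Dcun1d3. Nearest to Mef2c were Fn1 with 1, 9 and 14 reads in cardiac, EDL and soleus, Rrp12 with 3, 8 and 15, and Gpatch8 with 2, 9 and 13. Fn1, which encodes fibronectin, was also on the list of fibroblast markers. Nearest to Sox6 were Kmt2c with 3, 14 and 6 reads, Msl3 with 3, 20 and 8, and Ccdc50 with 11, 58 and 27. With 3 libraries, the order among neighbours rests on a few reads.

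The exonic parts showed which forms these genes used. A part is a stretch between annotated exon borders, and it was counted in the deposited table by the reads that cover its position and by those that hold it. Of the 166 parts, 156 had a coverage of 30 or more consensus reads in a library. In all 3 libraries, 67 were held by every consensus read that covered them, and 30 were held by none. The 30 include Mef2c part 73, which no read covered. A part was called when its use differed by at least 20 percentage points in full-length reads with an adjusted p under 0.05, from Fisher's exact test (two-sided), adjusted by Benjamini-Hochberg over the whole table of that pair. Between EDL and cardiac muscle 17 of 151 member parts were called, 16 of Mef2c and 1 of Sox6, where 5.04% of 4762 parts of all genes were called. Between soleus and cardiac muscle 17 of 151 were called, all of Mef2c, against 4.43% of 4736. Between EDL and soleus 2 of 156 were called, both of Sox6, against 1.16% of 4935. No Mef2a part was called in any pair. Full-length reads merged into the same consensus read are not independent, and in consensus reads the counts were 5, 12 and 0, beside 3.42%, 3.12% and 0.405% of all parts. The tests compare libraries, not muscles in general.

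Many of these parts repeat one another. The authors' artifact list held 14 of the 76 Mef2c parts and none of Mef2a or Sox6. Of these, 11 carried a remark that they repeat a neighbouring part, and 3 (parts 8 and 9 and the unannotated u-002) a remark that they came from an unspliced cardiac read. Without the listed parts, 5 of 137 members were called between EDL and cardiac muscle, where 4.55% of all remaining parts were called, and 4 of 137 between soleus and cardiac muscle, where 3.96% were. Both shares of the members were below those of all parts. The called Mef2c parts amounted to an upstream untranslated exon, a 3-nt extension, the 144-nt and 138-nt exons and, against soleus, u-002.

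The heart library held the 144-nt exon of Mef2c and no read of the 138-nt exon, and the leg muscles held both. The 144-nt exon (its part 34) was held by 12 of 12 cardiac full-length reads (100%, Clopper-Pearson 95% interval 73.5 to 100), 43 of 89 in EDL (48.3%, 37.6 to 59.2) and 125 of 376 in soleus (33.2%, 28.5 to 38.3). The 138-nt exon (its part 38) was held by 0 of 12 in cardiac muscle (the upper limit of such a count is 25%), by 47 of 93 in EDL (50.5%, 39.97 to 61.1) and by 248 of 378 in soleus (65.6%, 60.6 to 70.4). The cardiac interval overlapped neither leg muscle for either exon. Parts 34 and 38 are on the authors' artifact list as repeats of a neighbouring part. The parts of these exons on the authors' curated list, 33 and 37, were also called in both pairs with cardiac muscle in full-length reads. In consensus reads against soleus, part 37 was called (adjusted p = 0.0444, Fisher's exact test) and part 33 was not (adjusted p = 0.116, Fisher's exact test). Against EDL neither was called there (adjusted p = 0.331 and 0.289, Fisher's exact test). Part 34 was held by 8 of 8 cardiac, 15 of 32 EDL and 22 of 61 soleus consensus reads. It was called against soleus (adjusted p = 0.0230, Fisher's exact test) but not against EDL (adjusted p = 0.273, Fisher's exact test).

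The 138-nt exon was used 50.5 points more in EDL than in cardiac muscle (adjusted p = 0.00886, Fisher's exact test) and 65.6 points more in soleus (adjusted p = 9.41e-05, Fisher's exact test). In consensus reads it was held by 0 of 8 cardiac, 16 of 34 EDL and 38 of 62 soleus reads, and the call against soleus held (adjusted p = 0.0343, Fisher's exact test) while that against EDL did not (adjusted p = 0.331, Fisher's exact test). Between the leg muscles soleus was 15.1 points above EDL in full-length reads (adjusted p = 0.232, Fisher's exact test), which was not called. At parts 34 and 38, the full-length reads holding either exon summed to 12 of 12 in cardiac muscle. The sums were 90 of at most 93 in EDL and 373 of at most 378 in soleus, near those of exons that replace each other. At parts 33 and 37 the soleus counts were 140 of 375 and 247 of 378, together more than the covering reads. Some soleus reads therefore held sequence of both exons. The part table gives no count of such reads.

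The 132-nt exon of Mef2a was in use in all 3 libraries. It was held by 50 of 108 cardiac (46.3%), 118 of 201 EDL (58.7%) and 67 of 155 soleus (43.2%) full-length reads. The widest gap, 15.5 points between EDL and soleus, had an adjusted p of 0.126 (Fisher's exact test) and shrank to 0.704 points in consensus reads, where 27 of 52 EDL and 21 of 41 soleus reads held it. In cardiac muscle 12 of 29 consensus reads held it, and no pair was called.

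The 24-nt exon was in most Mef2a reads and in no Mef2c read. In Mef2a it was held by 107 of 108 cardiac (99.1%), 184 of 201 EDL (91.5%) and 135 of 155 soleus (87.1%) full-length reads. Soleus was 11.98 points below cardiac muscle (adjusted p = 0.00529, Fisher's exact test), which is short of the 20 points needed for a call. In consensus reads the counts were 28 of 29, 41 of 52 and 32 of 41. The Mef2c 24-nt exon was held by 0 of 12 cardiac, 0 of 98 EDL and 0 of 380 soleus full-length reads, counts that leave room for shares of up to 25%, 3.06% and 0.789%.

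The 96-nt stretch of Mef2c (parts 58 and 59, on the authors' curated list) was held by 1 of 12 cardiac (8.33%), 49 of 98 EDL (50.0%) and 157 of 380 soleus (41.3%) full-length reads. EDL was 41.7 points above cardiac muscle (adjusted p = 0.0901, Fisher's exact test) and soleus 32.98 points above it (adjusted p = 0.392, Fisher's exact test), so neither was called.

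**Figure D3:**
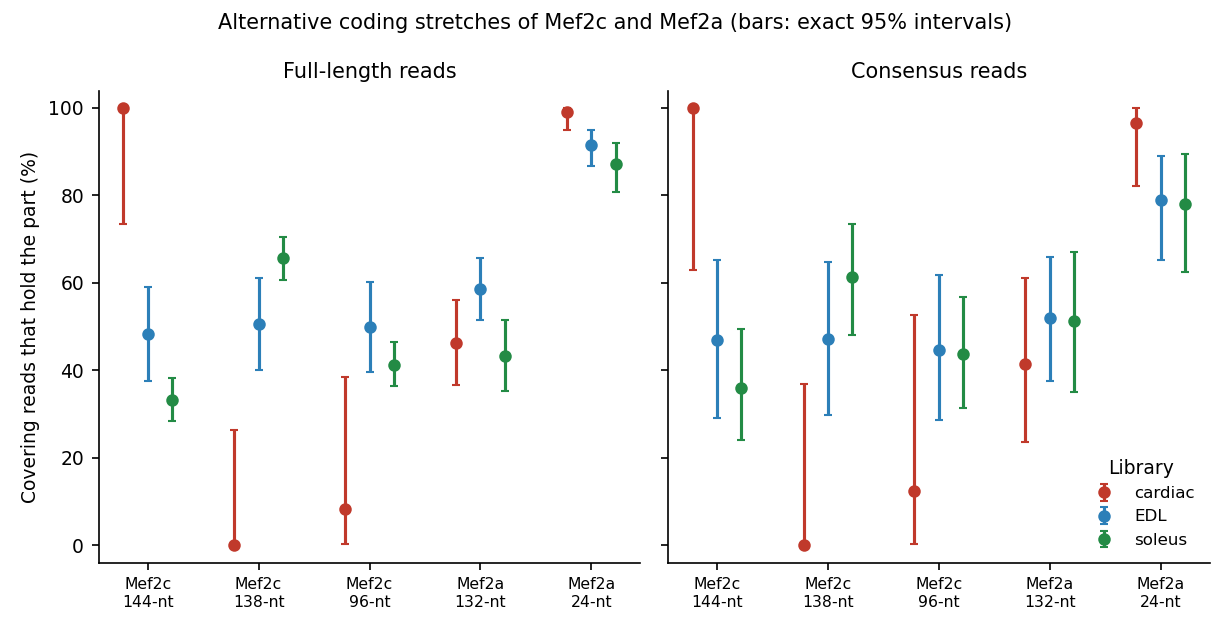
Percent of covering reads that hold each alternative coding stretch of Mef2c and Mef2a, in full-length reads (left) and consensus reads (right), with exact Clopper-Pearson 95% intervals as bars. Cardiac reads of Mef2c are at 100% for the 144-nt exon and 0% for the 138-nt exon, while the leg muscles and all libraries of Mef2a lie between.

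Mef2c reads also began in different places. Of the consensus reads that covered part 72, near the 3′ end, 0 of 8 in cardiac muscle reached part 3 (chr13:83504240-83504376), in the first annotated untranslated exon, which allows up to 37.5%. In EDL 25 of 38 reached it (65.8%, 48.6 to 80.4) and in soleus 47 of 64 (73.4%, 60.9 to 83.7). Cardiac reads instead held an untranslated exon that lies downstream. Its part 15 (chr13:83524920-83525080) was held by 6 of 7 cardiac, 2 of 28 EDL and 4 of 52 soleus consensus reads, and by 10 of 11, 4 of 84 and 6 of 360 full-length reads. The share was 86.1 points lower in EDL (adjusted p = 2.79e-08, Fisher's exact test) and 89.2 points lower in soleus (adjusted p = 3.13e-13, Fisher's exact test). Both calls of part 15 held in consensus reads (adjusted p = 0.00368 and 0.00120, Fisher's exact test). Part 15 is on the authors' artifact list as a repeat of a neighbouring part. Part 10, the 1-nt part of this exon on their curated list, was held by 2 of 3 cardiac reads. It was called in full-length reads but not in consensus reads (adjusted p = 0.420 against EDL and 0.149 against soleus, Fisher's exact test).

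Of the other named Mef2c parts, part 4, an untranslated exon at chr13:83520385-83520480, was held by 26 of 26 EDL and 44 of 48 soleus consensus reads and was covered by no cardiac read. Part 26, a 3-nt extension of an untranslated exon, was held by 5 of 11 cardiac, 3 of 85 EDL and 11 of 365 soleus full-length reads, and was called in both pairs with cardiac muscle (adjusted p = 0.00676 and 0.000607, Fisher's exact test). In consensus reads it was held by 3 of 7, 3 of 29 and 5 of 54 and was not called. Parts 9 and 10 were called on 3 covering cardiac reads and u-002, against soleus alone, on 1.

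**Figure D4:**
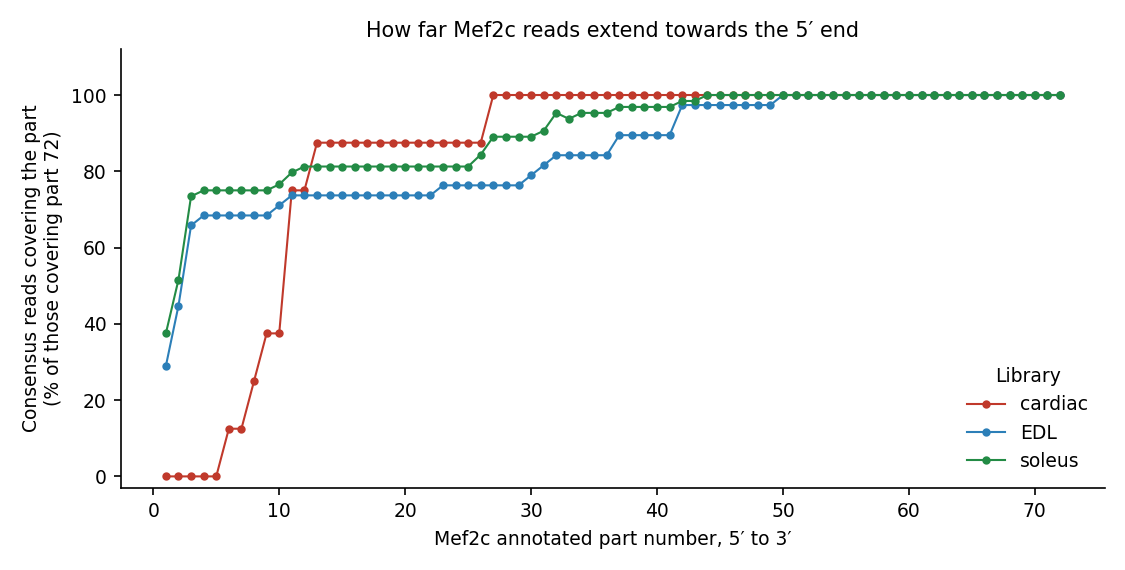
Consensus reads covering each annotated Mef2c part, as a percent of those covering part 72 (vertical axis), by part number from the 5′ end (horizontal axis), for each library. Cardiac reads (8 at part 72) stop short of parts 1 to 5, which 26 of 38 EDL and 48 of 64 soleus reads reach at part 4.

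The promoter of the Mef2c start that leg muscle reads approached is shown from RefSeq (GRCm38.p6, plus strand, chr13:83503784-83504033), as the 250 bases before the annotated start at 83504034. Capitals mark matches to CANNTG, the E-box that MyoD family proteins bind, which reads the same on both strands.
Mef2c promoter: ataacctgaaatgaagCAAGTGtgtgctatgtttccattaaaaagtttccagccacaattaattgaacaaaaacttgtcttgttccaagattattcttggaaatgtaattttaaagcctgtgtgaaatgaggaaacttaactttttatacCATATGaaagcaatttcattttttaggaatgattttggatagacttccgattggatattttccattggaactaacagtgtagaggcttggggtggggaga
The matches begin at bases -234 and -100 from the start. Of 32851 RefSeq promoter windows of 300 bases (250 before to 50 after a start), 72.3% hold CANNTG.

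Sox6 forms were called different between EDL and soleus in full-length reads alone. Its part 21, the 3 bases shown in capitals above (chr7:115597617-115597619), was held by 1 of 13 cardiac (7.69%), 152 of 282 EDL (53.9%) and 6 of 62 soleus (9.68%) full-length reads. EDL stood apart from soleus by 44.2 points (adjusted p = 5.19e-09, Fisher's exact test) and from cardiac muscle by 46.2 points (adjusted p = 0.0184, Fisher's exact test). In consensus reads the part was held by 1 of 11, 17 of 51 (33.3%) and 5 of 21 (23.8%), and EDL and soleus were not called apart (adjusted p = 1, Fisher's exact test). The call between EDL and cardiac muscle was lost there too, at 24.2 points (adjusted p = 1, Fisher's exact test), and also when parts with a coverage of 10 entered the adjustment (adjusted p = 0.062, Fisher's exact test). The EDL consensus reads with the part merged 8.94 full-length reads each, against 3.82 for those without it, and in soleus the values were 1.20 and 3.50.

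Part 39 (chr7:116030860-116031047), an untranslated exon of 188 nt at an annotated start, was held by 5 of 13 cardiac, 31 of 282 EDL (10.99%) and 23 of 62 soleus (37.1%) full-length reads. EDL was 26.1 points below soleus (adjusted p = 0.000245, Fisher's exact test). In consensus reads the part was held by 3 of 11, 9 of 51 and 6 of 21 and was not called. Part 40, an exon of 225 nt further upstream, was held by 5 of 8, 26 of 42 and 12 of 15 covering consensus reads and was not called in any pair. In each library, reads holding part 39 were as many as those that covered it without reaching part 40. Likewise, reads that lacked part 40 were as many as those that reached part 41, further upstream. The use of parts 39 and 40 thus went with where the reads began, so the part 39 call describes read starts. Inclusion of an internal exon is not what it measures. Parts 21, 39 and 40 were the Sox6 parts on the authors' curated list.

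The promoter at the start of part 39 is shown from RefSeq (GRCm38.p6, minus strand, chr7:116031048-116031297), again as the 250 bases before the start. Most Sox6 reads extended upstream of this start. Of the consensus reads that covered part 3, near the 3′ end, 8 of 11 cardiac, 42 of 53 EDL and 15 of 21 soleus reads reached part 40. Capitals mark CANNTG, which begins at bases -158, -70 and -20.
Sox6 promoter: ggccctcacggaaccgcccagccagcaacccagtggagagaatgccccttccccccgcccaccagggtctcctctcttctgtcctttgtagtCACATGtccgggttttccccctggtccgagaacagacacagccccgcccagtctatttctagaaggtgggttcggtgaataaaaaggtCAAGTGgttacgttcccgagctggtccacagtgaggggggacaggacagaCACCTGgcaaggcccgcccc
These matches describe the letters of the window, and binding was not measured.

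Of the remaining variable Sox6 parts, some were in nearly all reads and others in few. Parts 17 and 18, adjoining stretches of 33 and 47 nt, were both held by 10 of 11 cardiac, 51 of 51 EDL and 21 of 21 soleus consensus reads. Part 41 (399 nt) was held by 3 of 3, 14 of 16 and 3 of 3. Part 19 (266 nt) was held by 1 of 11 cardiac reads and by none of 51 EDL and 21 soleus reads. Part 16, a coding exon of 123 nt (chr7:115579016-115579138), was held by 4 of 51 EDL consensus reads and by none of 11 cardiac and 21 soleus reads. The unannotated part u-008 (157 nt, chr7:116024407-116024563) was held by 1 of 11 cardiac, 6 of 51 EDL and 3 of 21 soleus consensus reads. Unannotated parts u-001 to u-006 were stretches of 5294 to 7098 nt, each held by at most 3 consensus reads in a library. Towards the 3′ end, part 2 was reached by 0 of 11 cardiac, 3 of 53 EDL and 2 of 21 soleus consensus reads that covered part 3, so most reads ended before the most distal annotated end. In Mef2a, part 32, a 20-nt untranslated extension, was held by 5 of 28, 13 of 51 and 11 of 39 consensus reads, and no pair was called.

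**Figure D5:**
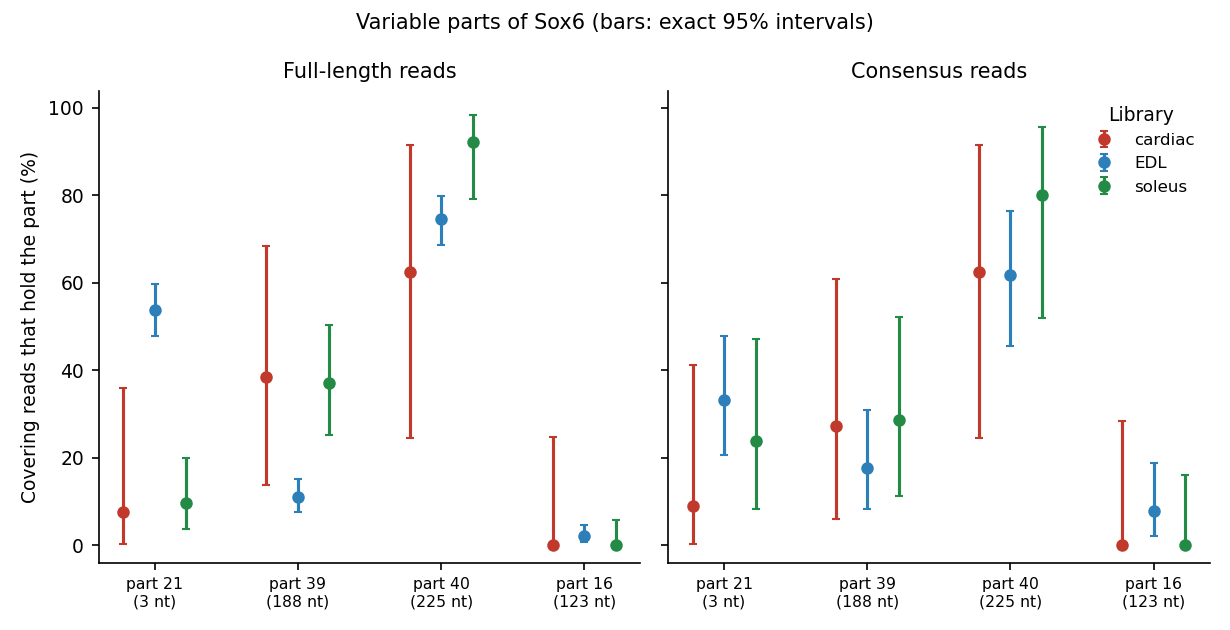
Percent of covering reads that hold 4 variable parts of Sox6, in full-length reads (left) and consensus reads (right), with exact Clopper-Pearson 95% intervals as bars. Part 21 stands at 53.9% in EDL and 9.68% in soleus full-length reads, and at 33.3% and 23.8% in consensus reads with overlapping intervals.

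Partners and regulators of MEF2 were mostly below what could be measured. The part of the size selection in the low counts of this list and of the lists that follow was not tested. Of 32 listed genes 12 had a read, and none reached 20 reads in a pair. Those with the most reads were the coactivators Ncoa2 with 7, 5 and 9 reads in cardiac, EDL and soleus and Ncoa3 with 6, 5 and 5, and Mkl2, a coactivator of SRF, with 2, 4 and 4. Myocd, the SRF coactivator of heart and smooth muscle, had 8, 0 and 0 reads and was named after its values were seen. The class IIa deacetylase gene Hdac4 had 1, 2 and 2.

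Of 39 other muscle transcription factors 15 had a read, and 3 were measured between EDL and cardiac muscle and 2 in each other pair. Tbx20, a T-box factor of the heart, had 20, 0 and 0 reads and was the gene called, higher in cardiac muscle than in each leg muscle, where 3.2% and 3.38% of all genes were called higher in cardiac muscle. No listed factor was called between EDL and soleus, where 1.82% of genes were called in either direction. Esrrg, an orphan nuclear receptor of oxidative metabolism, had 12, 12 and 28 reads, 2.65-fold more in soleus than in EDL (1.30 to 5.72). Six4, a homeobox factor of muscle, had 3, 19 and 14 reads, 5.85-fold more in EDL than in cardiac muscle (1.72 to 30.8). Eya3, a cofactor of such homeobox factors, had 10, 6 and 6. Mef2b, the remaining family member, had no read, which allows up to 3 counts in each library among molecules of the selected size.

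Slow-fibre genes that SOX6 is known to repress in mouse muscle were set beside Sox6. Of 9 genes 6 had a read and 2 were measured between EDL and soleus, and both were called higher in soleus, where 1.42% of genes were. Atp2a2, the slow calcium pump, had 13, 0 and 21 reads in cardiac, EDL and soleus, at least 7.95-fold higher in soleus than in EDL against a floor of 3 counts per library. Myh7 had 38, 18 and 433, 27.3-fold higher in soleus (17.1 to 46.5). Myh7b, next in number of reads, had 3, 2 and 1 and did not run higher in soleus. These reads were too few for it to be measured between EDL and soleus. Sox6 itself, with 53 EDL and 21 soleus reads, was not called in that pair.

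Of 17 known MEF2 target genes of striated muscle 11 had a read and 5 were measured. Xirp2, an actin-binding repeat protein, had 34, 121 and 71 reads and was called 3.29-fold higher in EDL than in cardiac muscle (2.23 to 4.96). Myh6, the cardiac alpha myosin, was called higher in cardiac muscle in both pairs. Myom1, an M-band protein, had 73, 82 and 75 reads and was not called in any pair. The median log2 ratio of the measured targets was 0.06 for EDL over cardiac, 0.11 for soleus over cardiac and -0.06 for EDL over soleus, beside 0.02, 0.07 and -0.06 for all genes measured. Counting error is the only error these intervals cover.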

How the data were processed

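Per the submitters' processing notes, STAR 2.5.0am was a tool and mm10 and GRCm38 the builds. The authors deposited raw counts of consensus reads per gene (htseq-count), and raw counts of consensus and full-length reads that cover and hold each exonic part, made from annotation release 85 per the deposited protocol. Other deposited columns used are the authors' list memberships. Reads assigned to no gene (9.78%, 8.92% and 8.64% of cardiac, EDL and soleus) stayed out of the totals of 18302, 19826 and 17459.

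Groups came from the tissue label, with 1 library each, so results have no replicate check, and gene ratios carry no p-value. Ratios, exact intervals (95%) and Fisher's exact tests were computed in Python 3.11.15 with scipy 1.17.1, and exon alignments with biopython 1.88. Part tests were fitted over every part of the table with 30 consensus reads in some library. No pseudocount entered the ratios, and list medians used 0.5 added to each count. Both tests were tested on simulated data. With 500 genes simulated for EDL and cardiac muscle, 35.2% of those changed 4-fold were called, 73.0% of those changed 8-fold and 0 of 300 unchanged. With 4762 parts simulated for that pair, 85.4% of those differing by 60 points were called and 1 of 4562 unchanged. The simulation drew full-length reads as independent, which merged reads are not, so it cannot show how many calls merging adds.

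Named were all members, the 3 genes nearest to each, and the parts that were called, on the authors' lists, or held by 5 to 95% of reads at a coverage of 10. From the lists, named genes were those called and the 3 with most reads. The members and lists were chosen with earlier results of these data known. Totals, bars, minimums and the counting unit were varied. A further exon that meets this rule is not reported here, nor recomputed under the alternatives.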

Additional observations from a re-analysis of the deposited data

How the results depend on the processing

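Leaving out the 10 most abundant genes moved all soleus over cardiac ratios by 0.12 on the log2 scale, and no other scaling moved a pair by more than 0.1. It took Mef2c in EDL over cardiac to 4.21, no longer called. With the bar at 1-fold, 3 further ratios passed: 1.60 for Mef2a in EDL over cardiac, 1.94 for Mef2c in soleus over EDL and 2.22 for Sox6 in EDL over soleus. In full-length reads the Mef2c and Sox6 ratios of these were 3.13 and 5.60. Both passed the 2-fold bar, with intervals that take merged reads as independent. The minimum of reads and the median-of-ratios factors changed no member call. Listed transcription factors called rose from 1 to 2 for EDL and cardiac, from 1 to 2 for soleus and cardiac and from 0 to 1 for EDL and soleus at 1-fold, and from 1 to 3 for EDL and cardiac at a minimum of 10 reads. Called member parts for EDL and cardiac fell from 17 to 5 in consensus reads and to 5 without the authors' artifact list. For soleus and cardiac they fell from 17 to 4 without that list, and for EDL and soleus from 2 to 0 in consensus reads. Over all genes, parts called for EDL and soleus were 57 in full-length and 20 in consensus reads. None of the part differences that changed sign in consensus reads was called. In points, these were -0.595 for Sox6 part 40 and 2.67 for u-008 (EDL minus cardiac), and for soleus minus cardiac 9.84 for Mef2a part 22, 10.3 for part 32 and 1.30 for Sox6 part 39. For EDL minus soleus they were -2.71 for Mef2a part 32 and -0.549 for Mef2c parts 12 to 15. The causes were not tested. No paired analysis was possible because each muscle had 1 library, so no library could be left out either. The 8 cardiac Mef2c and 11 cardiac Sox6 reads limit every comparison with the heart.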
